A study of Homo sapiens with 19 samples.

Results

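Alternative exons of 5 myosin genes, MYO18A, MYO5A, MYO6, MYO9B and MYL6, were followed through AKAP8 knockdown and through the epithelial-to-mesenchymal transition (EMT) of a human mammary epithelial cell line. The genes were chosen by name with earlier results of these data known, and every row of the 15 splicing tables that carried one of these symbols was taken. This gave 77 distinct splicing events of 100239 in the whole series, from 5 of 11998 genes: 61 cassette exon (SE), 13 mutually exclusive exon (MXE), 1 alternative 3′ splice site, 1 alternative 5′ splice site and 1 retained intron event. AKAP8 peaks from enhanced cross-linking and immunoprecipitation (eCLIP) that lay over these genes were added.

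All libraries came from HMLE/Twist-ER cells, TERT-immortalised human mammary epithelial cells that carry the transcription factor Twist fused to the estrogen receptor. The 4 RNA-seq groups were untreated (EPI) cells with a non-specific shRNA (EPI control, 3 libraries), untreated cells with an shRNA against AKAP8 (EPI AKAP8 KD, 3 libraries), and the same pair after 20 nM tamoxifen, which switches the fusion protein on and gives mesenchymal (MES) cells (MES control, 3 libraries, and MES AKAP8 KD, 2 libraries). The fusion gene and a lentiviral shRNA are therefore present in every RNA-seq group, and all groups derive from 1 cell line. The eCLIP samples were 2 immunoprecipitations and 2 size-matched inputs per state, merged to 1 peak list per state. Each RNA-seq library held from 31258177 to 40852217 cassette junction reads, and the study describes them as biological replicates without saying whether the shRNA cells were made more than once, so p-values measure the spread between these libraries only.

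The scaled AKAP8 junction reads were 244, 310 and 245 in the EPI controls and 121, 98.8 and 125 after knockdown, so that 43.1% of the control level was left. In the MES state they were 382, 196 and 248 in controls and 108 and 122 after knockdown, or 41.8% of control. The log2 fold change was -1.20 in both states, with an adjusted p of 0.066 in EPI cells and 0.032 in MES cells by limma. These AKAP8 values rest on the junction reads of 2 cassette events. Of the epithelial markers 5 of 5 that could be tested (CDH1, ESRP1, ESRP2, JUP and OCLN) were lower in MES controls, and 7 of 7 mesenchymal markers tested were higher. No marker of either list passed the cutoffs after knockdown in either state.

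Myosins are actin-based motors built of a heavy chain with a motor head and a cargo-binding tail, together with light chains that bind the neck between them. MYO5A carries vesicles and organelles towards the plus end of actin filaments, MYO6 is the myosin that walks to the minus end, and MYO9B carries a GTPase-activating domain in its tail. MYO18A is an unconventional myosin that binds actin but has little motor activity and is known for its link with GOLPH3 at the Golgi. MYL6 is the essential light chain of non-muscle and smooth muscle myosin II. Several of these genes use short in-frame exons, and in MYO5A and MYO6 such exons in the tail are known to alter which cargo adaptors are bound.

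The variable exons that carried the results are shown 5′ to 3′ on the transcript strand, with 40 bases of intron on each side in lower case and the exon in capitals. Coordinates are GRCh37, and the sequence was read from the matching reference genome. The first 3 changed in EMT, the first one also after knockdown, and the others are those that were most variable between libraries or of intermediate inclusion.
MYO18A 45-nt exon, chr17:27412622-27412666, minus strand: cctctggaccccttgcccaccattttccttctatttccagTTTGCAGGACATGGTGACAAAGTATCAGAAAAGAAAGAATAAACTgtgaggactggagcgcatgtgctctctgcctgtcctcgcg
MYL6 45-nt exon, chr12:56554410-56554454, plus strand, shown up to its stop codon: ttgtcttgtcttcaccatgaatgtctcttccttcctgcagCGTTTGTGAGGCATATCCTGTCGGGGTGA
MYO6 27-nt exon, chr6:76621389-76621415, plus strand: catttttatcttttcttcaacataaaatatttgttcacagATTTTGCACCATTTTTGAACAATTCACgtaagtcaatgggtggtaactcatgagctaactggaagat
MYO18A 12-nt exon, chr17:27443462-27443473, minus strand: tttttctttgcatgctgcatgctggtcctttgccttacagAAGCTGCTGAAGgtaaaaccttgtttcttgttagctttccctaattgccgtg
MYO5A 9-nt exon, chr15:52641015-52641023, minus strand: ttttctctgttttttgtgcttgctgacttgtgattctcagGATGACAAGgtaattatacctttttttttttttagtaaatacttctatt
MYO5A 81-nt exon, chr15:52635314-52635394, minus strand: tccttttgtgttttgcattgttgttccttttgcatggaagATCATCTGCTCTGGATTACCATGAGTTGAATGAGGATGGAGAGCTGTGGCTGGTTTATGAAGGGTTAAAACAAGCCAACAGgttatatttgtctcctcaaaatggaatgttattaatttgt
All 6 exons are a multiple of 3 in length. In GENCODE the MYO18A 45-nt exon is all coding, adds 15 codons and stands in 1 of 25 transcripts of the gene. The MYO6 27-nt exon adds 9 codons and is found in 4 of 18 transcripts. The MYL6 45-nt exon is found in 4 of 21 transcripts and brings 26 coding bases and a stop codon, so transcripts with and without it differ at the C terminus of the light chain.

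Inclusion was measured as percent spliced in (PSI), the share of transcripts that include the exon, from junction reads corrected for the effective lengths of both forms. An event needed a mean of 20 or more junction reads in a library to be tested, by a quasi-binomial F test fitted over all events of its type. It was called at a Benjamini-Hochberg adjusted p under 0.05 and a PSI difference of at least 10 percentage points. Of the 77 events 73 were tested in at least 1 comparison, and the remaining 4 (1 of MYO18A and 3 of MYO6) had too few reads. Most of the tested events hardly varied in the groups for which they were listed. There, 47 had a PSI of at least 95% in every group and 6 of at most 5%, which left 20 with intermediate or changing inclusion. Some events were listed for 1 comparison only and have no value in the other groups.

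After AKAP8 knockdown in EPI cells, 1 of 55 tested events of the myosin genes was called, the MYO18A 45-nt exon, which rose by 21.9 percentage points. Over all genes, 0.0492% of tested events were called. In MES cells 0 of 51 tested events were called by the quasi-binomial test or by limma on logit PSI, 3 had an unadjusted p under 0.05 at any size of difference, and 0.0540% of all tested events were called. Between EPI and MES controls 4 of 55 were called against 1.60% of all events: the MYO18A and MYL6 45-nt exons rose, and the MYO6 27-nt exon and the ratio of a MYO9B exon pair fell. For cassette exons alone the counts were 1 of 45 (0.0588% of all), 0 of 40 (0.0479% of all) and 3 of 45 (1.40% of all). Without the size cutoff they were 2 (0.0946% of all), 0 (0.0662% of all) and 5 (2.26% of all). Because the genes were chosen with earlier results of these data known, these counts describe the chosen genes only. They are no test of enrichment.

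The median size of the PSI difference over the cassette events of the myosin genes was 0.443, 0.628 and 0.553 percentage points in the EPI knockdown, the MES knockdown and EMT. Over all genes these medians were 0.580, 0.792 and 0.684 percentage points. Differences of 10 percentage points or more, whatever their p, were found in 1 of 45 myosin cassette events in the EPI knockdown (2.22%, against 2.27% of all cassette events), in 1 of 40 in the MES knockdown (2.5% against 3.84%) and in 5 of 45 in EMT (11.1% against 5.07%). The choice of genes with earlier results known limits these shares as well.

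**Figure D1:**
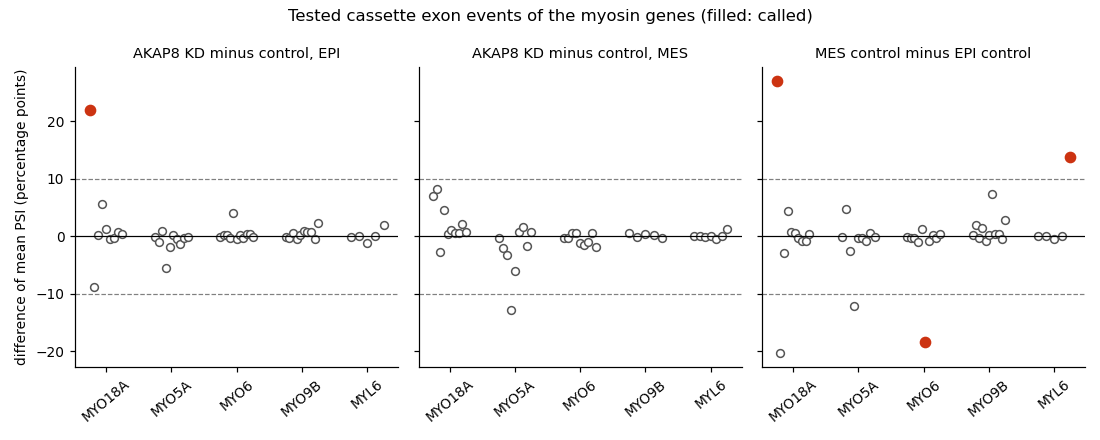
Difference of mean PSI in percentage points (vertical axis) for each tested cassette exon event of the 5 genes (horizontal axis) in the 3 comparisons. Filled points were called and dashed lines mark 10 percentage points. The MYO18A 45-nt exon is the filled point at 21.9 in the EPI knockdown and at 26.97 in EMT. Open points beyond the lines, such as the MYO18A 12-nt exon at -20.3 in EMT and the MYO5A 81-nt exon at -12.8 in the MES knockdown, did not pass the adjusted p.

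The MYO18A 45-nt exon moved in the same direction after AKAP8 knockdown in EPI cells and in EMT. Its PSI was 56.9%, 52.1% and 53.9% in the EPI controls and 72.9%, 83.9% and 71.7% in the EPI knockdown libraries. Each control lay below each knockdown library. The mean rose from 54.3% ± 2.43 to 76.2% ± 6.68 (SD, n = 3 each), with an adjusted p of 8.1e-04. Summed over libraries, 587 inclusion and 342 skipping reads stood behind the control value, and 914 and 191 behind the knockdown value.

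In the MES controls the exon stood at 77.7%, 78.9% and 87.1%, above all EPI controls. The mean was 81.2% ± 5.14 (SD, n = 3), 26.97 percentage points above the EPI controls, with an adjusted p of 1.4e-05. The EPI knockdown and EMT comparisons share their 3 EPI control libraries, so the 2 differences are not independent. The MES knockdown libraries had 82.7% and 87.7%, a mean of 85.2% ± 3.58 (SD, n = 2). The table of the MES knockdown lists 2 of the 3 MES controls, and against these the difference was 6.91 percentage points with an adjusted p of 0.76. With the third control added it was 3.96.

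The EPI call was lost without 1 library: with the second knockdown library left out, the difference was 18.1 percentage points and the adjusted p 0.085. Under limma on logit PSI, which called 0 events of any gene in this comparison, the adjusted p was 0.894 (unadjusted 0.013). The same tool gave 0.0685 for the EMT difference, and over 14 alternatives each, the exon kept an adjusted p under 0.05 in 12 for the EPI knockdown and in 13 for EMT. The difference between the knockdown effects in both states, tested as an interaction, was -17.9 percentage points with an adjusted p of 0.671. No myosin event passed this test: of 28 tested, 0 were called and 0 had an unadjusted p under 0.05, and over all genes 0.00993% were called. When the interaction was fitted without the third MES control, 0 of 28 were called. In that fit 1 had an unadjusted p under 0.05 (0.034), and the lowest adjusted p was 0.652.

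The same 45-nt exon was also listed with other flanking exons. In one such listing, in the EPI tables only, its PSI was 94.4% in EPI controls and 100% after knockdown (adjusted p = 0.71), on 6 and 0 skipping reads. This event overlaps the first in its reads and is no separate measurement.

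The PSI profile of the MYO18A 45-nt exon over the 11 libraries was compared with 3730 variable cassette exons of the series as a description. The most similar were in TMEM9B (Pearson r = 0.96), FAM126A (r = 0.94) and MARK3 (r = 0.90), the last a 27-nt exon of a microtubule-affinity regulating kinase. TMEM9B stood at 73.8%, 89.1%, 93.5% and 97.0% in EPI control, EPI knockdown, MES control and MES knockdown. The most opposed were in ADD3 (r = -0.96), a membrane skeleton adducin, PBRM1 (r = -0.95) and RAI14 (r = -0.94). ADD3 fell over the same groups from 65.3% to 33.2%, 16.9% and 4.24%. These libraries share their state and knockdown, which such a correlation reflects.

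The MYL6 45-nt exon differed between the states and hardly with AKAP8. Its PSI was 56.4%, 56.8% and 49.98% in EPI controls and 70.2%, 69.1% and 64.9% in MES controls, without overlap. The mean rose by 13.7 percentage points, from 54.4% ± 3.83 to 68.1% ± 2.80 (SD, n = 3 each), with an adjusted p of 1.4e-17. The exon was deeply read, with 12642 inclusion and 7227 skipping reads in EPI controls and 23499 and 7442 in MES controls. Where the spread was modelled on all junction reads the adjusted p was 0.143, and under limma it was 0.549, with the same difference of 13.7.

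After knockdown the MYL6 exon had 58.9%, 54.4% and 55.7% in EPI cells, inside the range of the controls but for the highest library. The difference was 1.93 percentage points (adjusted p = 0.71). In MES knockdown libraries it was 70.8% and 71.0%, 1.23 percentage points above the 2 controls of that table (adjusted p = 0.76). The exons with the most similar profile were in MYO9A (r = 0.97), a myosin related to MYO9B, CD46 (r = 0.97) and PLOD2 (r = 0.96). The most opposed were in CCDC50 (r = -0.98), DENND4C (r = -0.97) and PCYT2 (r = -0.97).

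An upstream coding exon of MYL6, 144 nt long at chr12:56553371-56553514, was skipped at a low level that differed between groups. It is named here after its values were seen, since it passed the adjusted p and not the size cutoff. Skipping was 1.20%, 1.29% and 1.40% in EPI controls and 2.65%, 2.14% and 2.68% in the EPI knockdown. The groups did not overlap, and the mean rose from 1.30% to 2.49%, or 1.92-fold, while inclusion fell by 1.19 percentage points (adjusted p = 8.8e-04).

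In MES controls skipping of this exon was 2.06%, 1.96% and 1.55%, 1.43-fold above EPI controls (adjusted p = 0.044). In MES knockdown libraries it was 2.97% and 2.20%, with an adjusted p of 0.76 against the 2 controls of that table. The skipped form was read 485 times over the EPI controls and 862 times over the EPI knockdown libraries, beside 73952 and 69103 inclusion reads.

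The MYO6 27-nt exon encodes the small insert of the MYO6 tail. It was included in part of the transcripts of EPI cells and nearly absent from MES cells. Its PSI was 20.1%, 26.6% and 11.99% in EPI controls, against 2.11%, 1.07% and 0% in MES controls. The mean fell by 18.5 percentage points, from 19.6% ± 7.31 to 1.06% ± 1.05 (SD, n = 3 each), with an adjusted p of 3.3e-08. The call held in 14 of 14 alternatives.

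Summed over libraries, the MYO6 exon had 99 inclusion and 348 skipping reads in EPI controls and 7 and 426 in MES controls. The third MES control library had 0 inclusion reads of 96 junction reads, which allows a share of up to 3.125% of reads. In the EPI knockdown the values were 17.8%, 23.6% and 29.3%, a difference of 4.03 percentage points (adjusted p = 0.71). In MES knockdown libraries they were 1.05% and 0%, the latter on 0 of 64 reads, and the difference was -1.07 percentage points (adjusted p = 0.76).

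The profile of the MYO6 exon was most like those of exons in ENAH (r = 0.97), TMPO (r = 0.94) and CD44 (r = 0.94). ENAH is an actin regulator, and its 63-nt exon stood at 40.7% in EPI controls and 6.47% in MES controls. The CD44 exon went from 29.0% to 0.812%. The most opposed exons were in ARHGAP17 (r = -0.94), SPATA7 (r = -0.93) and ANXA6 (r = -0.93). The exons of 30 and 39 nt that form the large insert of MYO6 were near 0: the mean PSI of the 30-nt exon was 1.82%, 1.97%, 0.788% and 0% in EPI control, EPI knockdown, MES control and MES knockdown, and that of the 39-nt exon 0.348%, 0.475%, 1.55% and 0%. In the MES knockdown the largest MYO6 difference was that of a 92-nt exon at chr6:76568619-76568710, at 100% in both controls of that table and 96.2% and 100% after knockdown, or -1.88 percentage points (adjusted p = 0.76).

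**Figure D2:**
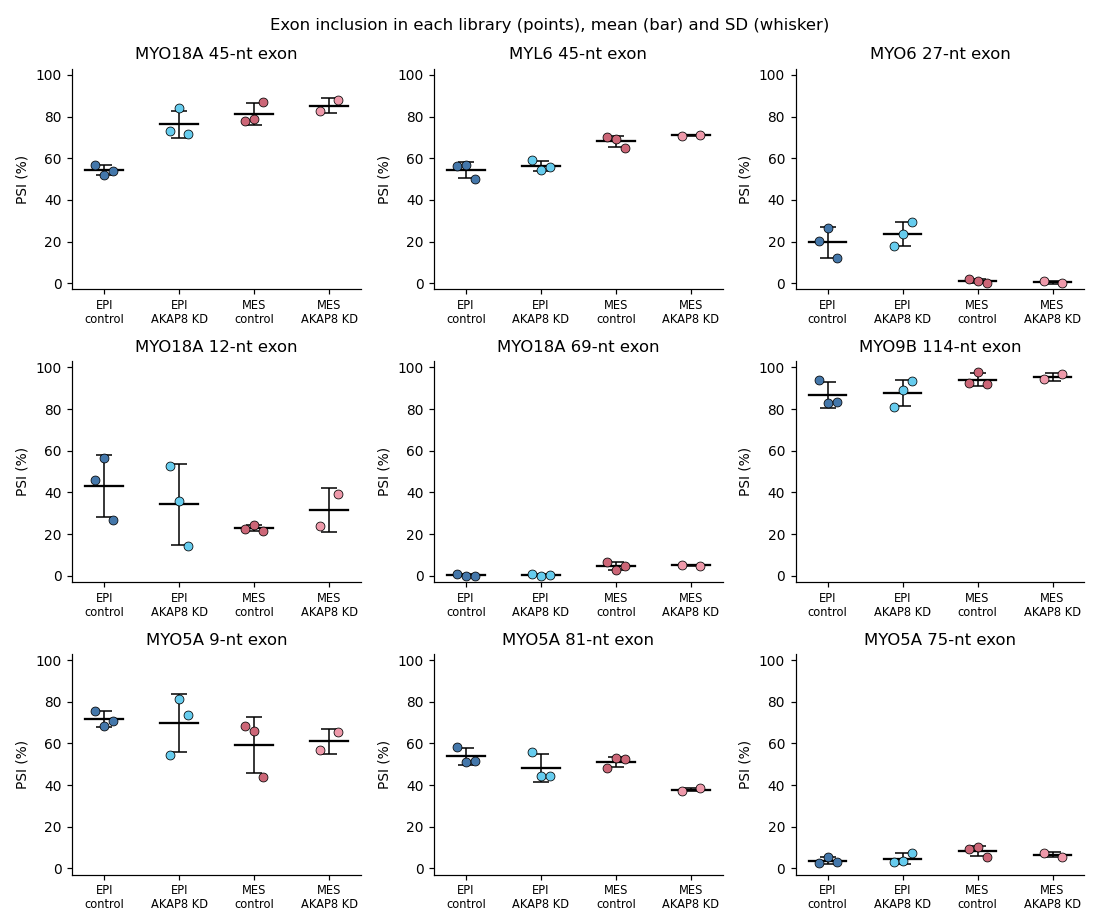
PSI in percent (vertical axis) of 9 cassette exons in each library of the 4 groups (horizontal axis). Points are libraries, the bar is the mean and the whisker the SD. The MYO18A 45-nt exon lies between 52.1% and 56.9% in the EPI controls and above 71% in every other library, the MYO6 27-nt exon lies under 3% in all MES libraries, and the MYO18A 12-nt and MYO5A 9-nt exons spread widely within groups.

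MYO18A had other variable exons, none of which was called. The 12-nt exon, of 4 codons, stood at 45.8%, 56.7% and 26.9% in EPI controls and 22.4%, 24.3% and 21.7% in MES controls. The groups did not overlap, but the adjusted p of the difference of -20.3 percentage points was 0.30. It had 49.7 junction reads per library in EPI controls and 28.7 in MES controls, so this depth gives wide errors for single libraries. After knockdown it was 52.9%, 35.9% and 14.2% in EPI cells (adjusted p = 0.71) and 23.95% and 39.1% in MES cells (adjusted p = 0.76).

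A 69-nt exon of MYO18A at chr17:27464034-27464102, of 39 coding and 30 noncoding bases, was included more in MES than in EPI controls. Its PSI was 0.745%, 0% and 0% in EPI controls and 6.77%, 2.57% and 4.71% in MES controls. These values rest on 2 inclusion reads in EPI controls and 12 in MES controls. The difference of 4.43 percentage points had an adjusted p of 0.026 and was under the size cutoff. The EPI knockdown libraries had 0.860%, 0% and 0.425%, and the MES knockdown libraries 5.20% and 4.94%. A second listing of this exon, with another upstream exon, had too few reads to be tested. There it had 54.2%, 0% and 0% in EPI controls, on 4 inclusion and 8 skipping reads. In MES controls it had 42.6%, 70.3% and 25.3%, on 22 and 23 reads.

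MYO5A held 3 variable tail exons of 9, 81 and 75 nt, known as exons B, D and F, and none of them was called in any comparison. Exon B takes part in binding the dynein light chain DYNLL2, and exon F is needed for binding melanophilin, the adaptor to Rab27a on melanosomes. The 81-nt exon stood at 58.2%, 51.3% and 51.7% in EPI controls and at 55.8%, 44.5% and 44.2% after knockdown, a difference of -5.54 percentage points (adjusted p = 0.71). In MES cells it was 48.4%, 52.9% and 52.3% in controls and 37.3% and 38.4% after knockdown. Against the 2 controls of that table this was -12.8 percentage points, without overlap but with an adjusted p of 0.76 (unadjusted 0.069). EMT alone changed it by -2.52 percentage points (adjusted p = 0.80).

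The 9-nt exon of MYO5A spread widely within groups. It was 75.7%, 68.4% and 70.7% in EPI controls and 54.3%, 81.3% and 73.5% in the EPI knockdown. The MES controls had 68.1%, 66.1% and 43.8% and the MES knockdown 56.8% and 65.3%. The EMT difference of -12.2 percentage points had an adjusted p of 0.31 and was -4.45 without the third MES control. The 75-nt exon was rare in all libraries, at 2.61%, 5.45% and 3.33% in EPI controls and 9.46%, 10.3% and 5.56% in MES controls (adjusted p = 0.33).

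In MYO9B the called event was an MXE pair of a 67-nt exon at chr19:17308601-17308667 and a 125-nt exon at chr19:17308993-17309117. The length-corrected share of the form with the 67-nt exon was 38.7%, 39.8% and 43.8% in EPI controls and 31.6%, 25.5% and 23.6% in MES controls. It fell by 13.9 percentage points (adjusted p = 0.021, against 2.29% of all MXE events called in EMT). As cassette exons both were nearly always included. The 67-nt exon had 91.3%, 100% and 100% in EPI controls and 100% in each MES control, and the 125-nt exon 100% in each EPI control and 99.1%, 100% and 100% in MES controls. The first form was counted on the same 267 and 124 reads that counted as inclusion of the 67-nt cassette exon, so the exons were seldom exclusive of each other.

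The MYO9B call was lost under limma (adjusted p = 0.159) and without any of 4 libraries: the first EPI control (0.0568), the second EPI control (0.0542), the second MES control (0.136) and the third MES control (0.114). The event was listed for the EMT comparison only. The 114-nt exon at chr19:17291736-17291849 was 93.9%, 83.1% and 83.5% in EPI controls and 92.6%, 97.9% and 92.1% in MES controls (adjusted p = 0.40). It overlapped between the groups, as it did after knockdown, with 81.0%, 89.0% and 93.3% in EPI cells and 94.2% and 96.9% in MES cells (adjusted p = 0.95 and 0.91). An alternative 3′ splice site of 3 nt was used at means of 47.7%, 48.4%, 52.6% and 55.5% in EPI control, EPI knockdown, MES control and MES knockdown, and was not called in any comparison.

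Tested cassette exons of the 5 genes were often short and in frame. Of 50 distinct exons 60.0% were a multiple of 3 in length, against 42.4% of all 47661 tested, and their median length was 94.5 nt against 117 nt. Exons of up to 27 nt, often called microexons, made up 3 of the 50 (6.0%) against 0.888% of all. These 3 were the MYO5A 9-nt, MYO18A 12-nt and MYO6 27-nt exons.

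Levels were read from the junction reads of cassette events found in all tables, summed per gene and scaled by size factors. They compare libraries and not genes, because genes differ in the number of events. The values also depend on splicing and rest on few events: 4 for MYO6, 5 each for MYO9B and MYL6, 7 for MYO18A and 8 for MYO5A. In such bulk samples fewer cells of a kind and less RNA per cell cannot be told apart. No myosin gene was called in the EPI knockdown by limma, where 0.189% of all genes were, none of them had an unadjusted p under 0.05, and the sizes of the 5 log2 fold changes were at most 0.17.

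MYO18A was the gene whose level fell in EMT. It had 1552, 1643 and 1529 scaled reads in EPI controls and 681, 641 and 813 in MES controls. The log2 fold change was -1.15 (SE 0.15, adjusted p = 9.7e-05, against 12.5% of all genes called), and it passed the cutoffs in all 16 alternatives. Knockdown left it at 1695, 1994 and 1651 in EPI cells (log2 fold change 0.17, adjusted p = 0.81) and at 685 and 729 in MES cells. The rise of the 45-nt exon after EPI knockdown came without a called change in level, and that in EMT with a lower one, whose part in the PSI was not tested.

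MYL6 had 53743, 64890 and 52868 scaled reads in EPI controls and 109546, 100925 and 67494 in MES controls, without overlap. The log2 fold change of 0.67 (adjusted p = 0.049) was under the cutoff of 1 and was not called. The adjusted p was under 0.05 in 8 of 16 alternatives and reached 0.186 without the first MES control. In knockdown libraries its level was 46149, 71193 and 45388 in EPI cells and 89910 and 64211 in MES cells, with adjusted p of 0.96 and 0.59.

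MYO6 was lower in MES knockdown libraries, at 430 and 344 scaled reads against 980, 765 and 585 in MES controls. This was 49.8% of the control mean, with a log2 fold change of -0.98 (SE 0.24, adjusted p = 0.040), just short of the fold cutoff. It was -1.10 under scaling to total junction reads and -1.17 without the third MES control, and passed both cutoffs there. The adjusted p was under 0.05 in 11 of 16 alternatives and reached 0.233 without the second MES knockdown library, and the log2 fold change was -0.80 without the first MES control. Of all genes 2.27% were called in this comparison. In EPI cells MYO6 had 708, 639 and 864 in controls and 718, 537 and 739 after knockdown. The difference between the states was -0.83 on the log2 scale with an adjusted p of 0.70, and 0.0111% of all genes were called in that test.

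MYO5A and MYO9B were not called in any comparison. MYO5A had group means of 2203, 2352, 1960 and 1946 scaled reads in EPI control, EPI knockdown, MES control and MES knockdown. Its EPI controls, at 2121, 2090 and 2399, all lay above its MES controls, at 1901, 2025 and 1956, with a log2 fold change of -0.17 and an adjusted p of 0.48. MYO9B had 1278, 1294, 1294 and 1315 in the same order.

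**Figure D3:**
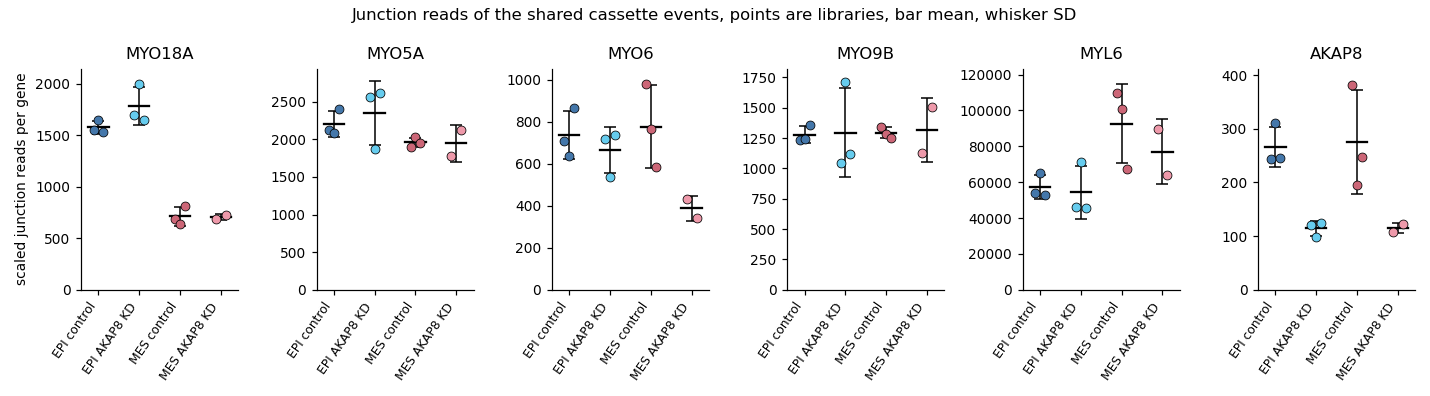
Scaled junction reads per gene (vertical axis, from 0, one scale per gene) of the 5 myosin genes and AKAP8 in each library of the 4 groups (horizontal axis). Points are libraries, the bar is the mean and the whisker the SD. MYO18A sits between 1529 and 1994 in EPI libraries and between 641 and 813 in MES libraries, and AKAP8 is lower in each knockdown library than in each control of its state.

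The rest of the myosin system was read from 3 gene lists. Of 15 other myosin heavy chains 11 could be tested for level, and in EMT 4 fell and 0 rose: MYO5B (log2 fold change -4.12), MYO5C (-3.34), MYO1D (-1.38) and MYO1E (-1.19). Of all 9014 genes tested, 1130 (12.5%) were called in EMT, 645 of them lower. The median over the 11 was -0.54, against 0.01 over all genes. MYO5B and MYO5C, relatives of MYO5A, are vesicle motors of epithelia. Among the cassette events of these heavy chains that were called in EMT, MYO9A exon forms of 195 and 120 nt that overlap rose from 18.2% to 71.7% and from 34.3% to 84.3%. None of the heavy chains was called for level or splicing in either knockdown. For level the count was 0 of 11 in EPI and in MES cells, against 0.189% and 2.27% of all genes. For cassette events it was 0 of 95 in EPI and 0 of 58 in MES cells, against 0.0588% and 0.0479% of all.

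Of 13 light chain and regulator genes 10 could be tested. MYLK, the kinase that phosphorylates the regulatory light chain of myosin II, fell in both knockdowns, with log2 fold changes of -1.43 in EPI cells (adjusted p = 0.0099) and -2.15 in MES cells (adjusted p = 0.0011). It was the one gene of this list called in either knockdown, where 0.189% of all genes were called in EPI and 2.27% in MES cells. In EMT the one called was MYL9, a regulatory light chain, which rose by 4.53 on the log2 scale (adjusted p = 2.4e-06, against 12.5% of all genes called). Of the list's cassette events, 0 of 50, 0 of 55 and 0 of 61 were called in EPI knockdown, MES knockdown and EMT. The shares over all cassette events were 0.0588%, 0.0479% and 1.40%.

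Of 14 cargo and adaptor partners 13 could be tested. In the MES knockdown DYNLL2 rose by 1.11 and TOM1, an endosomal adaptor of MYO6, by 1.499 on the log2 scale, 2 of 13 genes against 2.27% of all genes called. In EMT DAB2, a clathrin adaptor that binds MYO6, rose by 1.63 and MLPH, which encodes melanophilin, by 2.01, also 2 of 13 genes, against 12.5% of all. Cassette exons of MLPH moved in both directions in EMT, from 9.01% to 50.3% and from 92.8% to 72.5%. They were the 1 rise and 1 fall called among 81 tested cassette events of the list, against 1.40% of all. None of this list was called in the EPI knockdown. The counts were 0 of 13 genes and 0 of 61 cassette events, against 0.189% and 0.0588% of all.

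AKAP8 peaks were called over MYO18A and MYO9B, and 0 over MYO5A, MYO6 and MYL6. A high-confidence peak had a log2 ratio of immunoprecipitate over input of at least 2 and a -log10 adjusted p of at least 3. In EPI cells MYO18A held 11 such peak rows at 8 loci and MYO9B 4, against 18.2% of all genes with at least 1. In MES cells MYO18A held 1 and MYO9B 2 rows at 1 locus, against 11.3% of all genes. All were intronic and on the strand of the gene. A MES peak over MYO18A at chr17:27456921-27457007, with a log2 ratio of 1.16, was below the cutoffs and overlapped a high-confidence EPI peak. The RNA level of MYO18A was also lower in MES than in EPI controls (log2 fold change -1.15). Its part in the peak counts was not tested.

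The EPI peaks over MYO18A had log2 ratios of 2.55 to 4.37 and those over MYO9B 3.50 to 5.04, where the median of the whole EPI list was 3.78. In each gene 1 locus held high-confidence peaks of both states. The MYO18A locus had 4.37 in EPI cells and 3.99 in MES cells, and the MYO9B locus 3.82 and 3.02. Replicates were merged before the lists were made, so these differences have no replicate error.

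The shared peaks and the peak nearest to the MYO18A 12-nt exon are shown from 50 bases before to 50 bases after the centre, 5′ to 3′ on the transcript strand. Capitals mark every match to a G run beside an A or a T, searched as the words AGGG and TGGG and, with the run first, GGGA and also GGGT.
MYO18A, both states, EPI peak chr17:27504002-27504115, minus strand: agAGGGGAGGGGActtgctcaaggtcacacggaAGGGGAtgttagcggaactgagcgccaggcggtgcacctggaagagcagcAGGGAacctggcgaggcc
MYO18A, EPI peak chr17:27444030-27444088, minus strand, near the 12-nt exon: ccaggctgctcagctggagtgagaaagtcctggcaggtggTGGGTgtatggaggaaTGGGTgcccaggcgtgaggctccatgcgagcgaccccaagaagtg
MYO9B, both states, EPI peak chr19:17227459-17227533, plus strand: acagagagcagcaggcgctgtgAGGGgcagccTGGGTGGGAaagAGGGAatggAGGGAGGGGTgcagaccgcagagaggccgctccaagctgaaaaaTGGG
These words overlap each other, and the windows held 8, 4 and 12 matches on the transcript strand and 0, 3 and 0 on the other. Nearly all high-confidence peaks of the series held at least 1 match in such a window, 99.9% in EPI and 99.4% in MES cells.

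**Figure D4:**
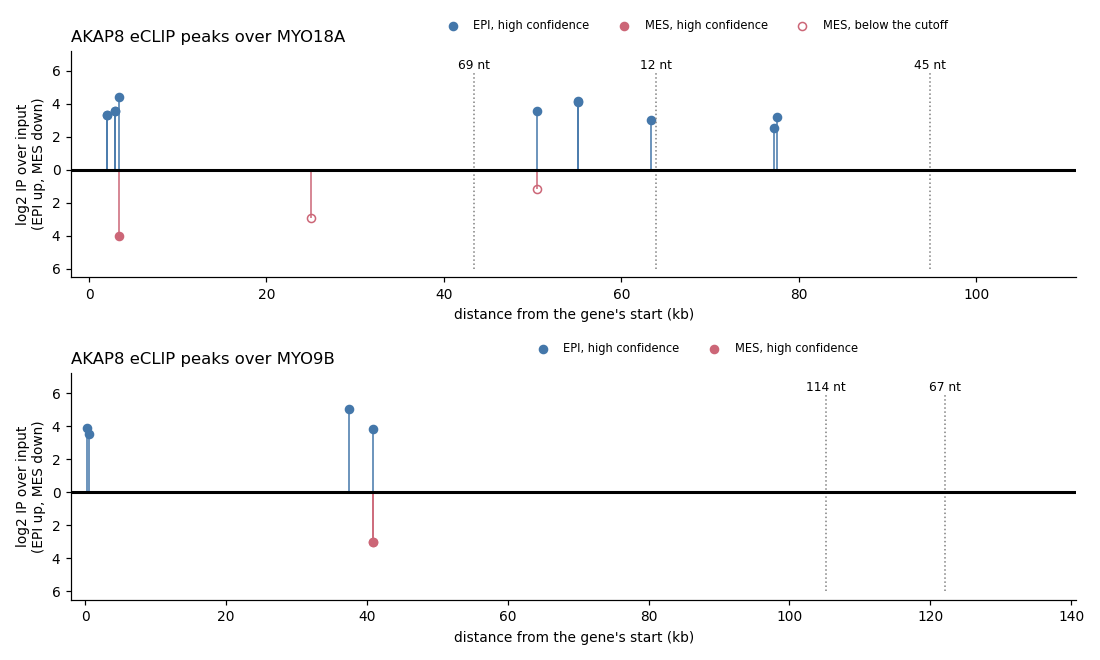
AKAP8 eCLIP peaks over MYO18A and MYO9B. The vertical axis is the log2 ratio of immunoprecipitate over input, drawn upwards for EPI and downwards for MES, and the horizontal axis the distance from the gene's start in kb. Dotted lines mark variable exons by length. The peak at 557 nt from the MYO18A 12-nt exon is seen in EPI only, and the EPI peak nearest to the 45-nt exon is 17238 nt away.

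Of the 50 tested cassette exons of the myosin genes 3 had a high-confidence EPI peak within 1000 nt, against 2.72% of all exons, and 0 had a MES peak, against 1.64%. All 3 were in MYO18A: a 66-nt exon at 280 nt, the 12-nt exon at 557 nt and a 145-nt exon at 975 nt. The 12-nt and 145-nt exons were counted through the same peak, which lies between them. None of these was called in any comparison. The nearest high-confidence peak to the MYO18A 45-nt exon was 17238 nt away in EPI cells and 91356 nt away in MES cells.

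The 200 nt of intron on each side of the exons were searched on both strands for the same G-run words, for GCATG, the word of RBFOX proteins, for ACTAA, the word of Quaking, and for GGTGG, of the kind bound by ESRP proteins. A match is a description of the letters only. On the transcript strand G-run words stood upstream of 77.5% and downstream of 80.7% of all exons. They matched 9 times upstream and 5 times downstream of the MYO18A 45-nt exon, 10 and 8 times for the MYL6 45-nt exon, 0 and 10 times for the MYO18A 12-nt exon, and 0 and 4 times for the MYO6 27-nt exon. In the same order, the opposite strand held 5 and 11, 10 and 11, 10 and 8, and 0 and 0 matches. Over all exons, the opposite strand held such words upstream of 77.0% and downstream of 76.7%.

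GCATG occurred 2 times downstream of the MYO18A 45-nt exon and 2 times downstream of the MYL6 45-nt exon, where 16.8% of all exons had at least 1 match, and the opposite strand of these windows held 1 and 0. It also occurred 2 times upstream of the MYO18A 12-nt exon and 2 times upstream of the MYO5A 81-nt exon, where 15.8% of all exons had a match, with 2 and 1 on the opposite strand. Exons of these genes that were nearly always included held it too. Examples are the MYO9B 48-nt exon, with 3 downstream, and the MYO18A 66-nt exon, with 2 upstream. ACTAA occurred 2 times and GGTGG 1 time downstream of the MYO6 27-nt exon, where 13.6% and 27.4% of all exons had a match.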

How the data were processed

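RNA was read by stranded paired-end poly(A) sequencing in 11 libraries, and AKAP8 binding by eCLIP. The authors aligned RNA-seq reads to GRCh37 with STAR and deposited rMATS tables, in which each field gives the junction read counts of a group's libraries, for 5 event types in 3 comparisons. For eCLIP the authors deposited 1 merged peak list per state, with the log2 ratio of immunoprecipitate over input and the -log10 adjusted p. The rMATS p-values, their inclusion levels and a table of the authors' DESeq2 comparisons hold the study's own results and were not used.

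PSI was computed from the reads and effective lengths. Reads were tested by a quasi-binomial F test with dispersion moderated across events by limma 3.58.1 in R 4.3.3, over whole tables, with Benjamini-Hochberg adjustment within event type and comparison. The test needed a mean of 20 junction reads in a library. Where the rarer form had under 10 reads, the dispersion of the trend was used. Levels were tested by limma on log2(value + 1) of junction reads, for genes that reached 10 in 2 or more libraries, and were called at a log2 change over 1 and an adjusted p under 0.05, so fold changes of low genes are understated. The tests were checked on simulated data. For splicing these had the same dispersion for all events, with large changes planted in well-read events of intermediate PSI. Small changes and rare forms were not covered. Intervals and limits on counts of 0 (3 reads) cover counting error only. Strand and annotation came from GENCODE on GRCh37.

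The members and gene lists were chosen with earlier results of these data known. Events given by library were those called, the largest difference of each gene and comparison, and exons of intermediate PSI (10% to 90% in EPI controls) with at least 100 reads per library. The MYL6 144-nt, MYO18A 69-nt, MYO5A 75-nt and MYO6 30- and 39-nt exons, the second 45-nt event of MYO18A and the MYO9B 3-nt site were added after their values were seen. Values of these added events under the alternatives were not examined. Some called events of the heavy chain list are not reported here.

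Libraries stand in an order within each field, and no source says that this order is the replicate number. Libraries at the same place deviated together in EPI cells (correlations of 0.282 to 0.58 over 3 pairs) and less in MES cells (0.022 to 0.173 over 2 pairs), and between EPI and MES controls the range was 0.079 to 0.265 over 3 pairs, so a fit with the place as a replicate block was an alternative. Others changed the minimum of reads, the dispersion trend, the tool, the cutoffs, the length correction, the scaling and the libraries.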

Additional observations from a re-analysis of the deposited data

How the results depend on the processing

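With the place in the list as a replicate block, the counts of myosin events called remained 1, 0 and 4 in the EPI knockdown, the MES knockdown and EMT, and those of gene levels 0, 0 and 1. The blocked adjusted p of the MYO18A 45-nt exon was 4.7e-04 in the EPI knockdown and 0.0425 in EMT. The block changed no call, and it turned the sign of MES knockdown level changes that were near 0, to 0.0073 for MYO18A, 0.0336 for MYO5A and -0.0123 for MYO9B on the log2 scale. Limma on logit PSI called 0 myosin events in the EPI knockdown and 1 in EMT. Without the size cutoff 3 and 7 were called, by construction. Leaving out single libraries gave 0 to 1 events in the EPI knockdown and 0 to 1 gene levels in the MES knockdown. Scaling to total junction reads, which moved the median log2 change of all genes to -0.135 in the MES knockdown and -0.103 in EMT, called 1 gene level (MYO6) in the MES knockdown and gave -0.11 for MYO9B there, and -0.0589 for MYO6 and -0.10 for MYO9B in EMT. The third MES control turned the MES knockdown difference of the MYO5A 9-nt exon to 1.69 percentage points. A looser peak cutoff gave 5 MES peaks. The causes were not tested.

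Over all genes, the block moved the events called from 32 to 42 in the EPI knockdown, from 32 to 17 in the MES knockdown and from 1078 to 730 in EMT. The dispersion trend on all junction reads gave 49, 59 and 1177, and limma 0, 7 and 541, and omitting the size cutoff 57, 51 and 1872. Leaving out single libraries gave 18 to 115, 6 to 241 and 675 to 1270, with 115 reached without the first EPI knockdown library and 241 without the first MES knockdown library. No change under 10 percentage points was callable by design, and exons with few reads, such as the MYO18A 12-nt exon, were limited by depth.

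Leaving out single libraries also turned differences that were not called. In the EPI knockdown the PSI differences ranged from -0.66 to 3.67 percentage points for the MYO9B 67-nt exon, from -7.67 to 5.83 for the MYO5A 9-nt exon, from -1.87 to 4.42 for the MYO9B 114-nt exon, from -0.28 to 3.12 for the MYL6 45-nt exon and from -18.1 to 1.27 for the MYO18A 12-nt exon. In the MES knockdown the MYO9B 114-nt exon ranged from -2.32 to 2.98. Level changes on the log2 scale ranged in the EPI knockdown from -0.24 to 0.12 for MYO9B, from -0.006 to 0.24 for MYO5A and from -0.31 to 0.0102 for MYL6, in the MES knockdown from -0.0736 to 0.10 for MYO18A, from -0.14 to 0.11 for MYO5A and from -0.20 to 0.22 for MYO9B, and in EMT from -0.13 to 0.24 for MYO6 and from -0.0084 to 0.0625 for MYO9B.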
